A study of Mus musculus with 9 samples.

Results

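The 10 genes described here were the interleukin-7 receptor gene Il7r and 9 genes of transcription factors or chromatin proteins used in early B cells, namely Ebf1, Pax5, Foxo1, Tcf3, Ikzf1, Ikzf3, Lef1, Bach2 and Bcl7a. They were chosen by symbol, and all 10 were found among the 15265 genes of the count tables, each with at least 1 count in every library. Bone marrow cells that had not been sorted were profiled by Drop-seq, a droplet method in which the RNA of each cell receives a barcode from a bead. There were 4 libraries of NG2-cre/Pot1a fl/fl mice and 5 libraries of NG2-cre/Pot1a wt/wt mice, with 100 barcodes in each. All mice were C57BL/6, 2 to 3 weeks old, and carried the NG2-cre transgene. In the Pot1a fl/fl mice Cre, expressed under the NG2 promoter in mesenchymal cells, deletes Pot1a, which encodes a telomere-binding protein. The comparison therefore asks how B-cell genes stood in marrow whose mesenchymal cells lacked Pot1a.

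The B lineage is built in the marrow by a small set of regulators. The receptor for IL-7, a cytokine made by stromal cells, joins the alpha chain encoded by Il7r to the common gamma chain and signals through Jak kinases and Stat5, which keeps B-cell precursors alive and dividing. Tcf3, which encodes the E2A proteins, Ebf1 and Foxo1 start the B-cell programme, and Pax5 holds cells to it. Ikzf1 and Ikzf3 encode the zinc-finger factors Ikaros and Aiolos, Lef1 an HMG-box partner of beta-catenin, Bach2 a repressor that acts in pre-B and mature B cells, and Bcl7a a subunit of the BAF chromatin-remodelling complex.

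After removal of 1 barcode, 899 of 900 cells remained, and library totals lay between 119459 and 465277 counts. Pot1a itself had 10, 3, 1 and 15 counts in Pot1a fl/fl libraries 1 to 4, against 3, 9, 10, 6 and 2 counts in Pot1a wt/wt libraries 1 to 5, which in unsorted marrow does not check a deletion in rare mesenchymal cells. Pot1a wt/wt 2 and 3 shared 19 barcodes whose counts correlated at 0.932 to 0.965 across genes, whereas the highest correlation of these cells of Pot1a wt/wt 2 with any other cell of Pot1a wt/wt 3 was 0.730. The other 35 of 36 pairs of libraries shared no barcode. Whether the shared barcodes were the same cells is not given by the labels. Both libraries stayed in the main fits, the pooled counts and the numbers of libraries, where any cell held by both enters with each. Libraries were not tied to mice by the labels, and the legend of the study names fewer mice than there are libraries, so p-values measure the spread between libraries. From Xist and Y-linked genes, 3 libraries (Pot1a fl/fl 2, Pot1a wt/wt 2 and 3) read as male.

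Cells were clustered without the 10 genes, so that none of them set a cell class. Of the 10 clusters, 1 was called pro-B-like (107 cells, led by the surrogate light chain genes Igll1 and Vpreb1 and by Dntt) and 1 small pre-B-like (121 cells, led by Fcrla, Igkc and Cd72), and both together were called B-lineage-like (228 cells). All 16 B-lineage markers, the list that named these clusters, had counts in these cells, as had 16 of 17 granulocyte and 17 of 18 erythroid markers. Of the T-cell receptor genes, Cd3e, Cd3g, Trbc1 and Trbc2 had 0 counts there, Cd3d had 3, and Cd247 and Trac had 1 each. Of the 14 T and NK cell markers, 6 had counts there, with a summed level of 0 to 37.9 CPM (a gene's or list's counts relative to all counts of the same cells) across Pot1a fl/fl libraries and 0 to 42.1 CPM across Pot1a wt/wt libraries. Libraries held 11, 10, 10 and 20 pro-B-like cells in Pot1a fl/fl 1 to 4, against 11, 8, 15, 11 and 11 in Pot1a wt/wt 1 to 5. Small pre-B-like cells numbered 12, 6, 11 and 16 in Pot1a fl/fl, against 20, 14, 12, 16 and 14 in Pot1a wt/wt. The stage names came from 4 leading pro-B markers in 1 cluster and 4 leading small pre-B markers in the other. Of the 8 pro-B markers, Rag1 and Rag2 alone were lower in pro-B-like cells (27.4 and 35.7 CPM, against 37.9 and 60.6 CPM). Of the 12 small pre-B markers with counts, Cd22 alone was higher in pro-B-like cells (98.7 against 79.5 CPM).

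Promoter sequences of 4 of the genes are shown. These are the receptor itself, the gene with the rarest motif match, and a pair (Lef1 and Bach2) whose levels differed in opposite directions between the stages. The windows reach from 250 bases before to 50 bases after a RefSeq transcription start on GRCm38.p6, and 8 of the 10 genes had such a window. Capitals mark matches, on either strand, to CAGNTG (E-box, the letters bound by E2A), to the palindromic EBF motif or to CTTTGA (LEF/TCF). The windows are Il7r at chr15:9529827-9530126 (minus strand), Foxo1 at chr3:52268087-52268386, Lef1 at chr3:131156044-131156343 and Bach2 at chr4:32417185-32417484 (all plus strand).
Il7r: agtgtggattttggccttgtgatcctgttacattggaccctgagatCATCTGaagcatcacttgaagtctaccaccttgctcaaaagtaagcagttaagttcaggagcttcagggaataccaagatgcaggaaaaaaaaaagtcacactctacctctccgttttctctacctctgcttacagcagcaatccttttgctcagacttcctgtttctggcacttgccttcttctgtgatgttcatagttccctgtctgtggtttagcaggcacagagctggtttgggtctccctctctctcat
Foxo1: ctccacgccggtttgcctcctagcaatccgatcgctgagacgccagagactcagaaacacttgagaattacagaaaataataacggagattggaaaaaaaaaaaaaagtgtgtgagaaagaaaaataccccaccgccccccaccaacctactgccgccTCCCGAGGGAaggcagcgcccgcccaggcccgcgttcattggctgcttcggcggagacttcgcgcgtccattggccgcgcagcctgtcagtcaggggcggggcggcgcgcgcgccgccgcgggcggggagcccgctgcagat
Lef1: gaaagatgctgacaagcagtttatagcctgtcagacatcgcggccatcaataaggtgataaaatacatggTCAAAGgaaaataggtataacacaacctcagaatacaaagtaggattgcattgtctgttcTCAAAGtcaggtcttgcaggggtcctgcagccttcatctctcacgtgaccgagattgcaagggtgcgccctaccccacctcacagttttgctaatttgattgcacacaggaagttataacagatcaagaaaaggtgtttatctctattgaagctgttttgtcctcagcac
Bach2: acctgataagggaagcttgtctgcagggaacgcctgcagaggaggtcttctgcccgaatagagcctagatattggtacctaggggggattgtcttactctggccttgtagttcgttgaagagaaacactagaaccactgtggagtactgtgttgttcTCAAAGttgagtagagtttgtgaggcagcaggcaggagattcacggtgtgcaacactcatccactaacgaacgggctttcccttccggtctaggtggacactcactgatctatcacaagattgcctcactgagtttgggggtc
The Il7r window lies inside the annotated gene and held 1 E-box match, which 51.4% of all 32851 promoter windows also hold. The Foxo1 window held 1 EBF match, present in 0.904% of all windows. The windows shown for Lef1 and Bach2, both of which begin inside the annotated genes, held 2 and 1 LEF/TCF matches, a motif present in 16.0% of all windows. The other Lef1 windows held no LEF/TCF match. They held E-box or TGGGAA (Ikaros, 25.6% of all windows) matches, 1 of which overlapped an E-box. The windows of Ebf1 held 1 LEF/TCF and 1 Ikaros match. No window of Pax5, Tcf3 or Ikzf1 held these letters or TGTTTAC (FOXO, 3.65% of all windows). The counts do not show which start was used. In GENCODE annotation of GRCm38, Il7r spans chr15:9505788-9530176, Ebf1 chr11:44617317-45008091, Pax5 chr4:44524757-44710487 and Lef1 chr3:131110471-131224356. Genes on the opposite strand overlap 7 of the 10 members, none of them within the last 1000 bases where 3' counting falls, and whether the counting used strand is not stated.

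Most of the 10 genes were counted mainly in B-lineage-like cells, which held 24.0% of all counts. Il7r had 276 of its 307 counts there, or 89.9% (95% exact binomial interval 86.0 to 93.0). Lef1 had 164 of 177 counts there (92.7%, 87.8 to 96.0), and Pax5 had 205 of 233 (88.0%, 83.1 to 91.9). These intervals, like all counting intervals here, cover counting error only. Ebf1, Bach2, Ikzf3, Foxo1 and Bcl7a followed with 84.7%, 86.7%, 79.6%, 76.7% and 70.5% of their counts in B-lineage-like cells. Tcf3 and Ikzf1 were spread more widely, with 44.6% (36.9 to 52.5) and 32.2% (26.9 to 37.9) of their counts in these cells.

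Outside the B lineage the receptor was at a low level. With counts summed over the libraries, Il7r had 277 CPM in pro-B-like and 663 CPM in small pre-B-like cells, against 16.5 CPM in granulocyte-like, 24.6 CPM in monocyte/macrophage-like and 18.3 CPM in erythroid-like cells. Erythroid cells do not use Il7r, so the 18.3 CPM there give the scale of background. Pax5 had 326 CPM in B-lineage-like cells, with 20.5 CPM in erythroid-like cells. Pooled, both thus stood far above that background in either B-cell stage, with Pax5 at 263 CPM in pro-B-like and 413 CPM in small pre-B-like cells. Single libraries varied. In Pot1a wt/wt 5, Il7r had 139 CPM in small pre-B-like cells (2 counts) against 78.5 CPM in erythroid-like cells (3 counts).

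Ikaros gave another order. Ikzf1 had 201 CPM in small pre-B-like cells (53 counts), 160 CPM in monocyte/macrophage-like cells (26 counts), 112 CPM in pro-B-like cells (41 counts), 103 CPM in granulocyte-like cells (94 counts), and 77.6 CPM in erythroid-like cells (34 counts). Over libraries with at least 10 cells of a class, its level averaged 188 ± 96.7 CPM in small pre-B-like (SD, n = 8), 106 ± 58.0 CPM in pro-B-like (n = 8) and 108 ± 39.8 CPM in granulocyte-like cells (n = 9). The last 2 of these differed by less than their spread. Tcf3, whose E2A products are found in many tissues, had 159 CPM in small pre-B-like, 87.8 CPM in pro-B-like, 54.8 CPM in erythroid-like and 35.2 CPM in granulocyte-like cells. Ikzf3, the Aiolos gene, had 39 of its 49 counts in B-lineage-like cells, at most 9.9 CPM in any other class.

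Ebf1 was also counted in the cluster named mesenchymal/osteolineage-like. The 16 mesenchymal/osteolineage-like cells held 14 Ebf1 counts (425 CPM), 10 of them in 2 cells of Pot1a fl/fl 1 and 4 in 1 cell of Pot1a wt/wt 4. In the same 16 cells 8 of the 16 B-lineage markers had counts, 17 in all (516 CPM) and spread over 10 cells, with Ly6d (4), Cd79b (3) and Igkc (3) the highest and Cd79a, Blnk and Vpreb1 at 0. The 3 cells with Ebf1 held 5 of these counts, and the part of B-cell RNA in the Ebf1 level was not tested. In the 16 cells the chemokine gene Cxcl12 had 152 counts (10 cells) and the collagen gene Col1a1 had 667 (8 cells). Markers of the monocyte/macrophage list were counted there too, with Vcam1 (62), C1qb (24) and C1qa (10) the highest, and Erg had 29 counts. Whether the 3 cells with Ebf1 were mesenchymal was not tested. Il7, the ligand of the receptor, had 1 count in the whole series, in the 16 cells. With so few cells per library the genotypes could not be compared here.

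**Figure D1:**
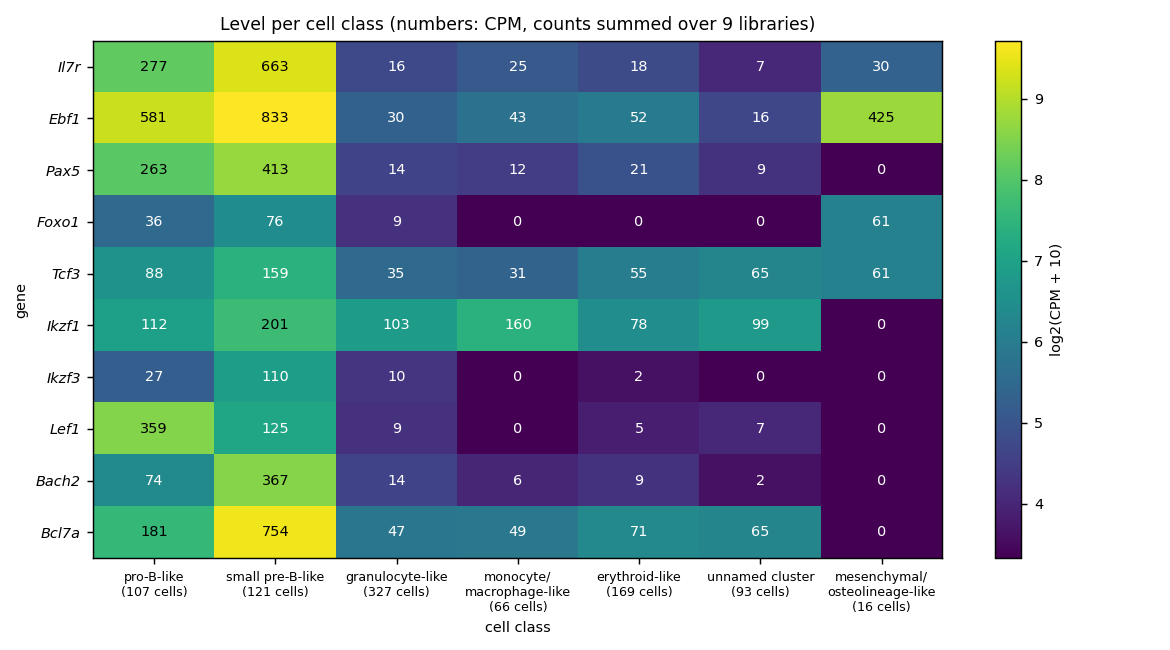
Level of each gene (rows) in each cell class (columns), as CPM over counts summed across the 9 libraries, with colour on a log2(CPM + 10) scale. Il7r, Pax5, Lef1 and Bach2 are high in the 2 B-lineage-like columns alone, Ikzf1 and Tcf3 have counts in most classes, and Ebf1 reads 425 CPM in the 16 mesenchymal/osteolineage-like cells.

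By a rule set for Il7r, Ebf1 and Pax5, the 5 genes with the most similar levels across the 10 clusters were listed, by Pearson's r of log2(CPM + 10) among 2310 genes. For Il7r these were Vpreb3 (r = 0.984), Ighm (0.966), Arntl (0.964), Pou2af1 (0.954) and Mzb1 (0.949). For Pax5 they included Cd79a (0.990), Cplx2 (0.976), 1810059H22Rik (0.959) and Slamf7 (0.955). For Ebf1 they were Akap12 (0.932), Sdc4 (0.932), Gm19980 (0.924), Grap (0.912) and Id3 (0.911). The lists of Il7r and Pax5 thus held B-cell antigen receptor genes, and that of Ebf1 held none. The points are 10 clusters of the same libraries, most of which have levels near 0, so the values are a description.

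The 2 B-cell stages were then compared. A cluster set against another gives no test, so the ratios below are descriptions over pooled counts, with the number of libraries in which each direction was seen. Small pre-B-like cells held fewer counts (median 1926 per cell) than pro-B-like cells (median 2660), so levels are given as CPM and, beside them, as counts per cell.

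Lef1 was the only one of the 10 genes with a higher pooled CPM in pro-B-like cells. Its level in pro-B-like cells was 419, 144, 231 and 315 CPM in Pot1a fl/fl 1 to 4 and 342, 496, 566, 315 and 369 CPM in Pot1a wt/wt 1 to 5. The small pre-B-like values were 95.6, 55.2, 235 and 142 CPM in Pot1a fl/fl and 93.1, 130, 159, 158 and 69.4 CPM in Pot1a wt/wt. Pro-B-like cells were higher in 8 of 9 libraries, and in Pot1a fl/fl 3, the shallowest library, the values were nearly equal. Pooled, Lef1 had 359 CPM in pro-B-like against 125 CPM in small pre-B-like cells, a log2 ratio of 1.52 (95% counting interval 0.96 to 2.12), and 1.22 against 0.27 counts per cell. Of all 2318 genes with at least 50 counts in B-lineage-like cells, 12.4% were higher in pro-B-like cells in at least 8 of 9 libraries.

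Bcl7a showed the opposite order in every library. Its level in pro-B-like cells was 230.5, 173, 462 and 146 CPM in Pot1a fl/fl 1 to 4 and 201, 217, 197, 78.8 and 148 CPM in Pot1a wt/wt 1 to 5. Its level in small pre-B-like cells was 502, 883, 706 and 1038 CPM in Pot1a fl/fl and 868, 876, 635, 655 and 555 CPM in Pot1a wt/wt. The lowest small pre-B-like value thus lay above the highest pro-B-like value. Pooled, this BAF subunit gene had 181 CPM in pro-B-like against 754 CPM in small pre-B-like cells (log2 ratio -2.06), and 0.62 against 1.64 counts per cell, where the order held in 8 of 9 libraries.

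Bach2 was lower in pro-B-like cells in 8 of 9 libraries. It had 83.8, 57.8, 77.0 and 72.8 CPM in pro-B-like cells of Pot1a fl/fl 1 to 4 and 40.3, 186, 49.2, 78.8 and 0 CPM in those of Pot1a wt/wt 1 to 5. The small pre-B-like cells had 502, 276, 0 and 495 CPM in Pot1a fl/fl and 682, 195, 222, 248 and 278 CPM in Pot1a wt/wt. The exception was again Pot1a fl/fl 3, with 1 and 0 counts. Pooled, this repressor gene had 74.0 CPM in pro-B-like against 367 CPM in small pre-B-like cells (log2 ratio -2.31), and 0.25 against 0.80 counts per cell, where the order held in 7 of 9 libraries.

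The receptor gene followed Bach2 and Bcl7a on the CPM scale. Il7r had 377, 144, 231 and 170 CPM in pro-B-like cells of Pot1a fl/fl 1 to 4 and 282, 620, 271, 197 and 443 CPM in those of Pot1a wt/wt 1 to 5. In small pre-B-like cells it had 478, 828, 353 and 873 CPM in Pot1a fl/fl and 744, 876, 1015, 339 and 139 CPM in Pot1a wt/wt. All libraries but Pot1a wt/wt 5 were lower in pro-B-like cells. The pooled log2 ratio was -1.26 (95% counting interval -1.63 to -0.90). Per cell the order held in 5 of 9 libraries, with 0.94 counts in a pro-B-like and 1.45 counts in a small pre-B-like cell.

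Ebf1 and Pax5, the main B-cell identity factors, differed less. Ebf1 had 581 CPM in pro-B-like against 833 CPM in small pre-B-like cells (log2 ratio -0.52), and was lower in pro-B-like cells in 8 of 9 libraries. Per cell it had 1.98 against 1.82 counts, so that its direction turned with the scale. Pax5 had 263 CPM against 413 CPM (log2 ratio -0.65, lower in 7 of 9 libraries) but 0.90 counts per cell in both stages. The lower CPM of both genes in pro-B-like cells was therefore not seen in counts per cell.

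Foxo1, Tcf3 and Ikzf1 had pooled log2 ratios of -1.09, -0.86 and -0.84, and were lower in pro-B-like cells in 7, 6 and 7 of 9 libraries. Per cell they had 0.12, 0.30 and 0.38 counts in pro-B-like against 0.17, 0.35 and 0.44 counts in small pre-B-like cells, an order seen in 5, 4 and 5 of 9 libraries. Ikzf3 rested on 10 counts in pro-B-like and 29 counts in small pre-B-like cells (log2 ratio -2.0), and was lower in pro-B-like cells in 8 of 9 libraries (7 of 9 per cell, at 0.09 against 0.24 counts). The split into stages depended on the integration of libraries. Without it 53 cells were pro-B-like and 172 small pre-B-like, with 0 pro-B-like cells in Pot1a fl/fl 3 and 1 in Pot1a wt/wt 5. Stage ratios were not computed for that split. When each cell was assigned by its own markers in place of clusters, the log2 ratio of CPM turned to 0.34 for Tcf3. The other 9 genes kept their sign. The ratios of Foxo1 (-0.14), Ebf1 (-0.12), Pax5 (-0.43), Ikzf1 (-0.71), Il7r (-0.91), Lef1 (1.27), Bach2 (-1.30) and Bcl7a (-1.41) were then closer to 0, and that of Ikzf3 (-2.25) was not. Of all 2318 genes, 9.28% were higher in small pre-B-like cells in at least 8 of 9 libraries, as were Il7r, Ebf1, Bach2 and Bcl7a of the 8 members with at least 50 counts. Erythroid markers summed to 5057 CPM in pro-B-like against 9932 CPM in small pre-B-like cells and B-lineage markers to 6058 against 9550 CPM, and the part of either in these ratios was not tested.

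**Figure D2:**
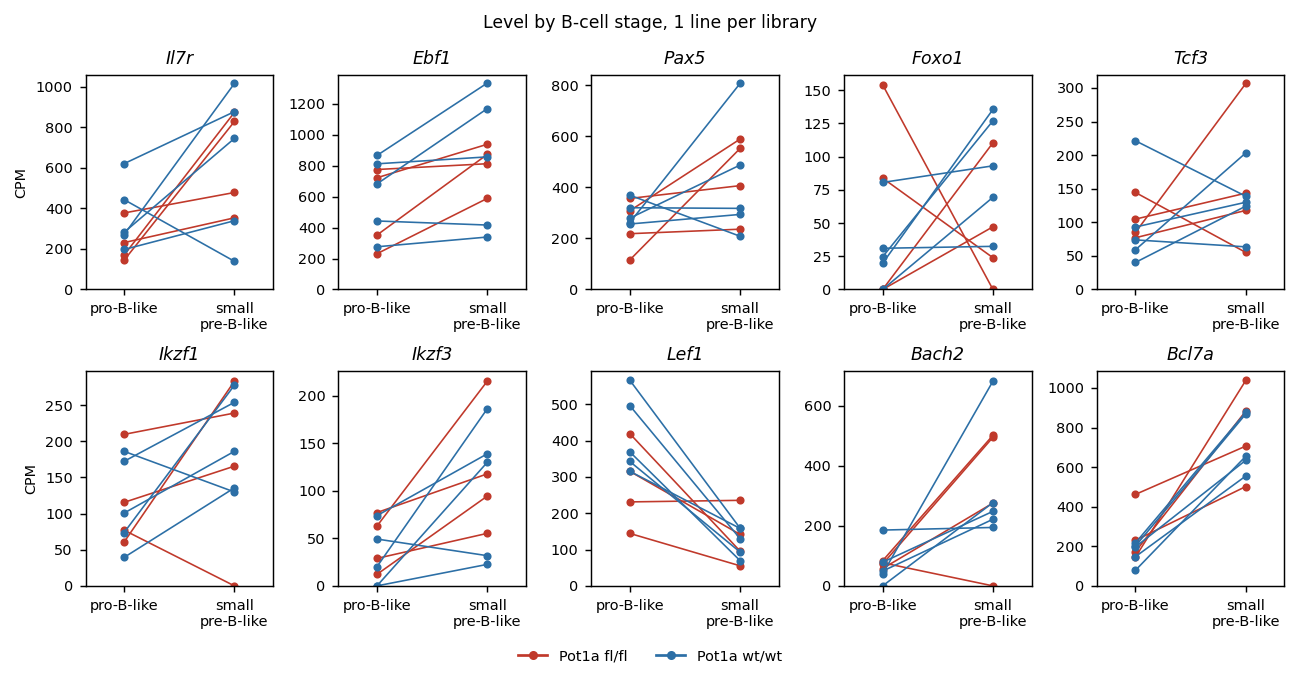
Level (CPM, linear axis from 0) of each gene in pro-B-like and small pre-B-like cells, with 1 line per library coloured by genotype. Lef1 lines fall toward the small pre-B-like side in 8 of 9 libraries, Bcl7a lines climb in 9 of 9, and the lines of both genotypes lie among each other.

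The share of cells with a count was compared at a common depth, after thinning cells to 1000 counts, which left out 7 pro-B-like and 20 small pre-B-like cells. Lef1 was then found in 30.9% of pro-B-like against 11.8% of small pre-B-like cells, with 0.55% of erythroid-like cells as background (56.1%, 20.7% and 1.2% before thinning). Bcl7a was found in 15.0% against 51.3%, with 7.4% of erythroid-like cells (39.3%, 66.9% and 16.0% before). Bach2 was found in 7.1% against 31.4%, with 0.76% of erythroid-like cells (17.8%, 45.5% and 2.4% before). Il7r was found in 22.8% against 42.3%, with 1.5% of erythroid-like cells (50.5%, 55.4% and 4.7% before). The median depth of erythroid-like cells was 2325 counts. In pro-B-like cells the thinned shares of Tcf3 (6.6%) and Ikzf1 (10.2%) were close to those of erythroid-like cells (4.7% and 7.2%). Both genes were counted in most classes, so for them erythroid-like cells give no background.

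Single cells held several of the genes at once. A B-lineage-like cell had counts of a median of 4 of the 10 genes, and 72.8% of these cells had 3 or more, against 6.5% of erythroid-like cells. Ebf1 and Pax5 were found together in 33.8% of B-lineage-like cells, Ebf1 without Pax5 in 31.1%, and Pax5 without Ebf1 in 17.1%. At this depth a missing count does not show that a gene was silent. The share with both ran from 4.0% in Pot1a wt/wt 5 to 52.2% in Pot1a fl/fl 1, which were among the shallowest and the deepest libraries. Lef1 and Bach2, whose stage order was opposite, still shared 29 cells.

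The genotypes were compared next, first over all marrow cells. In edgeR's quasi-likelihood fit 3 of 4559 genes (0.0658%) had an adjusted p below 0.05 and 364 an unadjusted p below 0.05. None of the 8 members that passed the count filter was among either. Whole marrow sums cannot tell fewer B-lineage cells from less RNA of a gene per cell, and B-lineage-like cells numbered 23, 16, 21 and 36 in Pot1a fl/fl libraries and 31, 22, 27, 27 and 25 in Pot1a wt/wt libraries.

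In whole marrow the receptor gene was not past the threshold. Il7r had 88.1, 74.7, 67.0 and 146 CPM in Pot1a fl/fl 1 to 4, against 159, 160, 134, 98.0 and 105 CPM in Pot1a wt/wt 1 to 5. The libraries overlapped through Pot1a fl/fl 4, the one with most B-lineage-like cells. The log2 fold was -0.41 ± 0.26 (SE), with an adjusted p of 0.733 by edgeR.

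Pax5 was the only member whose libraries did not overlap in whole marrow. It had 77.4, 74.7, 75.3 and 75.5 CPM in Pot1a fl/fl 1 to 4, against 167, 81.5, 79.3, 89.1 and 105 CPM in Pot1a wt/wt 1 to 5. The highest Pot1a fl/fl value lay below the lowest Pot1a wt/wt value by less than 1 count is worth in either library. Of all genes tested, 2.35% had libraries that did not overlap in either direction, and the log2 fold of -0.41 ± 0.30 had an adjusted p of 0.777 by edgeR. Pot1a wt/wt 1 stood apart with 42 counts of Pax5.

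The other members tested in whole marrow had log2 folds between -0.43 (Lef1, SE 0.33) and 0.26 (Tcf3, SE 0.28), and of all 8 tested 6 were negative. Their median was -0.16, beside -0.00 over all genes tested. Bach2 and Ebf1 (-0.03 and -0.17) turned to 0.36 and 0.20 without Pot1a wt/wt 1. Foxo1 and Ikzf3 were below the count filter, with 17 and 26 counts in Pot1a fl/fl against 26 and 23 counts in Pot1a wt/wt libraries.

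Within B-lineage-like cells the number of such cells no longer enters, but the mix of stages still does. Pot1a fl/fl libraries held 51 pro-B-like and 45 small pre-B-like cells, against 56 and 76 in Pot1a wt/wt. The part of this mix in the folds below was not tested. Of 1538 genes tested, 1 (0.065%) had an adjusted p below 0.05 by edgeR and 46 an unadjusted p below 0.05, none of them a member. In this comparison 7 members passed the count filter, with log2 folds between -0.35 and 0.06, a median of -0.16, and SEs of 0.26 to 0.39. The median over all genes tested was 0.01. No member had libraries that did not overlap, where 1.24% of all genes tested did.

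Il7r had 424, 379, 279 and 408 CPM in B-lineage-like cells of Pot1a fl/fl 1 to 4, against 464, 745, 596, 263 and 286 CPM in those of Pot1a wt/wt 1 to 5. The Pot1a fl/fl values lay within the range of the others. The log2 fold was -0.30 with a 95% interval of -0.94 to 0.34, that is from 0.52 to 1.26 times the Pot1a wt/wt level. With Pot1a wt/wt 2 and 3 taken as 1 library it was -0.19, and these were the 2 highest libraries.

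Ebf1 had 793, 796, 372 and 529 CPM in Pot1a fl/fl, against 1050, 920, 832, 305 and 429 CPM in Pot1a wt/wt B-lineage-like cells. Its log2 fold was -0.16 (95% interval -0.85 to 0.53), and 0.03 without Pot1a wt/wt 1. Pax5 had 380, 265, 419 and 224 CPM, against 476, 381, 319, 274 and 286 CPM, with a log2 fold of -0.19 (-0.81 to 0.43). For both genes the libraries of the genotypes lay among each other.

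Lef1 had 268, 114, 233 and 256 CPM in Pot1a fl/fl, against 244, 317, 388, 242 and 215 CPM in Pot1a wt/wt B-lineage-like cells. Its log2 fold of -0.35 (-1.01 to 0.32; adjusted p = 0.983 by edgeR) was the lowest of the 7. Bcl7a had 357, 417, 559 and 449 CPM, against 464, 539, 388, 347 and 358 CPM, with a log2 fold of 0.03 (-0.52 to 0.58). Bcl7a had the narrowest interval of the 7, within which a change of more than 1.5-fold either way did not lie. Bach2 and Ikzf1 had log2 folds of 0.06 and 0.04, both with an SE near 0.4.

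The 3 members below the filter in B-lineage-like cells had too few counts for a firm statement. Tcf3 had 39 counts in Pot1a fl/fl against 35 in Pot1a wt/wt libraries, Ikzf3 had 21 against 18, and Foxo1 had 11 against 22. Fitted without the filter, their log2 folds were 0.33 ± 0.47, 0.46 ± 0.60 and -0.61 ± 0.66 (SE).

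**Figure D3:**
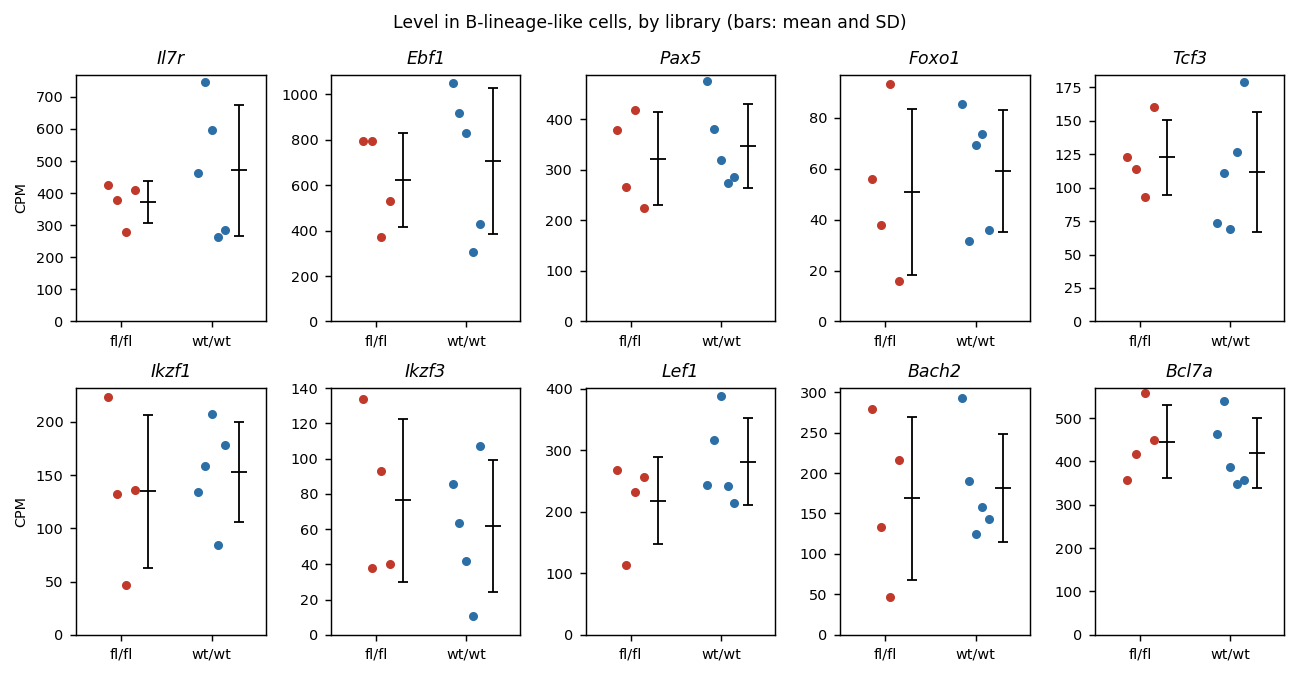
Level (CPM, linear axis from 0) of each gene in the B-lineage-like cells of each library, Pot1a fl/fl (4 points) left of Pot1a wt/wt (5 points), with the mean and SD as a bar. The points of both genotypes overlap for all 10 genes.

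**Figure D4:**
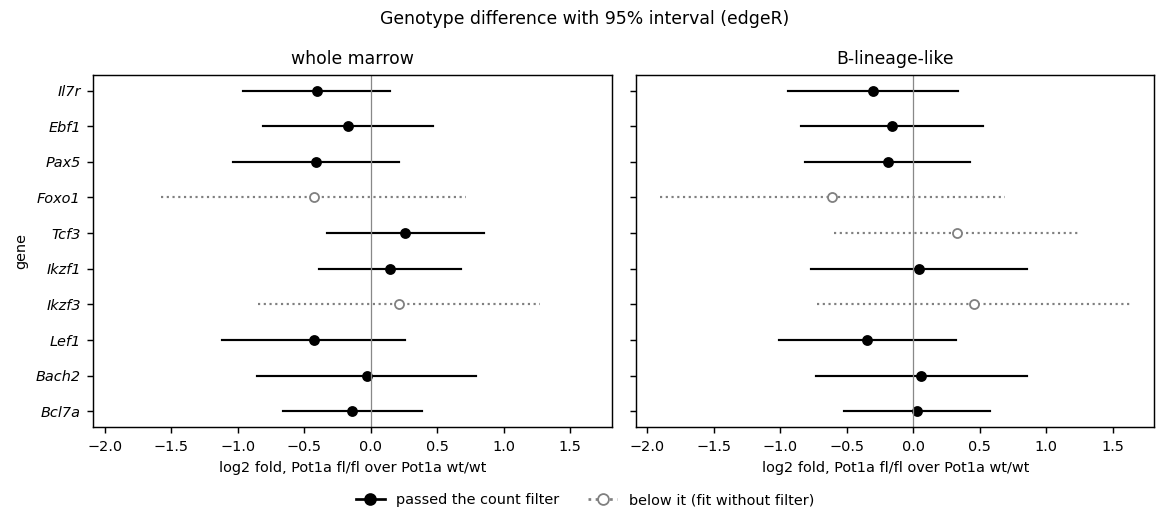
Log2 fold of Pot1a fl/fl over Pot1a wt/wt with its 95% interval (edgeR) for each gene in whole marrow and in B-lineage-like cells; open points are genes below the count filter. Every interval crosses 0, and the fold of Il7r is -0.41 in whole marrow and -0.30 in B-lineage-like cells.

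Markers of other cells were counted in the B-lineage-like cells at levels that differed between libraries. Granulocyte markers (16 of 17 with counts) summed to 6183 to 16712 CPM across Pot1a fl/fl libraries, against 1316 to 18166 CPM across Pot1a wt/wt libraries. Erythroid markers (17 of 18 with counts) summed to 3148 to 6611 CPM, against 1729 to 29931 CPM, the highest in Pot1a wt/wt 5. Their part in the folds above was not tested. With the cells of all libraries pooled, median counts per cell were 3005 in Pot1a fl/fl against 2289.5 in Pot1a wt/wt pro-B-like cells and 2284 against 1686 in small pre-B-like cells. The medians of single libraries, over all their cells, overlapped (955.5 to 3704 in Pot1a fl/fl, 1085 to 2637 in Pot1a wt/wt).

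Taken by stage, no gene passed the threshold. In pro-B-like cells 0 of 864 genes were called by edgeR (0%) and 0 by DESeq2, with 16 at an unadjusted p below 0.05, over 4 Pot1a fl/fl and 4 Pot1a wt/wt libraries with at least 10 such cells. Il7r, Ebf1, Pax5 and Lef1 were tested there, with log2 folds of -0.28 ± 0.43, -0.21 ± 0.41, -0.27 ± 0.40 and -0.46 ± 0.38 (SE). All 4 were negative, and each lay within 2 SE of 0. With marked doublets removed, Ebf1 turned to 0.35. Pot1a fl/fl 3 and Pot1a wt/wt 1 then held 9 such cells each and left that fit. The part of the doublets and that of the lost libraries in this turn was not tested.

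For small pre-B-like cells 0 of 742 genes were called by edgeR (0%) and 0 by DESeq2, with 11 at an unadjusted p below 0.05, over 3 Pot1a fl/fl and 5 Pot1a wt/wt libraries. Il7r, Ebf1, Pax5, Bach2 and Bcl7a had log2 folds of -0.05, -0.08, -0.24, 0.32 and 0.07, with SEs of 0.35 to 0.55. Foxo1, below the filter, had 3 counts in Pot1a fl/fl against 15 counts in Pot1a wt/wt libraries (adjusted p = 0.752 by edgeR without the filter).

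Whether the genotype difference itself differed between the stages was tested with an interaction term. Of 1212 genes, 0 (0%) were called by edgeR and 35 had an unadjusted p below 0.05, over 3 Pot1a fl/fl and 4 Pot1a wt/wt libraries with enough cells of both stages. For Il7r the difference of the log2 folds, pro-B-like minus small pre-B-like, was -0.24 (95% interval -1.48 to 1.0). For Ebf1 it was -0.46 (-1.43 to 0.51), and for Lef1 -0.27 (-1.78 to 1.23). Intervals this wide allow differences of more than 2-fold either way for Il7r and Lef1.

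Of the 19 genes of IL-7 receptor signalling, all had counts, but Il2rg, the common gamma chain, had 21 counts in B-lineage-like cells, Jak3 had 6, Jak1 had 75 and Stat5a and Stat5b had 2 and 7. The genes with most counts there were the cyclins Ccnd3 (241) and Ccnd2 (186), the survival gene Mcl1 (98) and the kinase gene Pim1 (81). Ccnd2 had 463 CPM in pro-B-like against 64.4 CPM in small pre-B-like cells, whereas Ccnd3 had 381 against 386 CPM. Between genotypes 0 of the 8 tested in whole marrow and 0 of the 3 tested in B-lineage-like cells passed the threshold, with medians of -0.04 and -0.11 beside -0.00 and 0.01 over all genes tested.

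Of the 17 targets of Ebf1, Pax5 and Tcf3, 10 were tested in B-lineage-like cells and none was called, with a median log2 fold of -0.01, 4 positive and 6 negative. Vpreb3, Igll1 and Vpreb1, which encode parts of the pre-B receptor or its chaperones, had log2 folds of -0.03, 0.29 and 0.25. In whole marrow 8 of 10 were negative, with a median of -0.21 and none called. Pou2af1, a coactivator of octamer factors, had the lowest p of this list there (log2 fold -0.70 ± 0.30, adjusted p = 0.546 by edgeR). It was named after its value was seen.

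Of 26 other factors of early lymphoid cells, 11 were tested in B-lineage-like cells, with none called and a median of -0.01. Foxp1, a forkhead factor of pre-B cells, was the most counted (469 counts) and had 428 CPM in pro-B-like against 1185 CPM in small pre-B-like cells, with a genotype log2 fold of -0.09 ± 0.28 (SE). Myb, Mef2c and Sox4 had genotype log2 folds of -0.16, 0.09 and 0.07. In whole marrow 19 of this list were tested, 7 positive and 12 negative, with a median of -0.05 and none called. Spi1 had the lowest p there (log2 fold 0.88 ± 0.25 (SE), adjusted p = 0.333 by edgeR), with 265 of its 354 counts in granulocyte-like cells. Like Pou2af1, it was named after its value was seen. Of the 6 ligand and niche genes none could be tested, and in B-lineage-like cells Cxcl12 had 4 counts, Tnfsf11 1 and the others 0.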

How the data were processed

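Drop-seq libraries of whole marrow were sequenced by the authors, who aligned reads to mm10 (STAR, per the labels' tool list) and counted genes per barcode with Drop-seq software. Tool versions and the gene annotation were not stated. The deposited values are whole-number counts per gene and barcode, which the study's methods call read counts. Whether reads of 1 molecule were collapsed is not stated. They were treated as molecules, on which the counting intervals depend. How the 100 barcodes per library were chosen is not stated either.

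Barcodes with at least 200 counts and at most 25% mitochondrial counts were kept. Scrublet (scanpy 1.11.5) marked 39 doublets, which stayed in. Clustering used Seurat 5.3.0 in R 4.3.3 (10000 counts per cell, anchor integration, 2000 variable genes, 20 components, Louvain resolution 1) without the 10 genes. Clusters were named from marker lists (at least 3 markers among 50 leading genes). Sums of counts per library and class entered edgeR 4.0.16 in libraries with at least 10 cells, after TMM scaling and filterByExpr, by its quasi-likelihood method with p-values adjusted over all genes (Benjamini-Hochberg, threshold 0.05). DESeq2 1.42.0 was an alternative. The tests were checked on simulated data. Genes named were the 10 members, the most counted genes of each list and the 5 most similar genes, 1 of which is not reported here. The members and lists were chosen with earlier results of these data known. Positions and motif windows are on GRCm38. No deposited per-sample column was left unused.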

Additional observations from a re-analysis of the deposited data

Results flagged for a closer look

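In 70 groups of 4 or 5 libraries examined, 3 values stood far from the rest of their group. Chance alone marks about 1 group in 20, and 3 of 70 is no more than that. All 3 belonged to Pot1a wt/wt 1. Pax5 had 167 CPM in whole marrow of that library, where the next of the 5 Pot1a wt/wt libraries had 105 CPM. Bach2 had 99.4 CPM in its whole marrow (25 counts), where the next library had 48.8 CPM. Bach2 also had 682 CPM in its small pre-B-like cells (22 counts), where the next library had 278 CPM. Those 22 counts are among the 25 of its whole marrow, so both Bach2 values rest largely on the same counts.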

How the results depend on the processing

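Over 77 alternative fits none called a member (lowest adjusted p 0.504), and 406 of 457 genotype folds of members kept their direction, while 51 reversed. SEs of the members in B-lineage-like cells were 0.26 to 0.39, and depth and the spread between libraries were not separated in them.

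Genes called in whole marrow (3) numbered 6 with DESeq2, 69 with no filter, 1 with Pot1a wt/wt 2 and 3 as 1 library and 1 to 3 without single libraries. In B-lineage-like cells (1) they numbered 12 with no filter, 0 with sex as a covariate, with the pair as 1 library or with every barcode kept, and 0 to 1 without single libraries. With no filter 2 were called in pro-B-like and 6 in small pre-B-like cells. Same-numbered libraries did not deviate together (r between -0.162 and 0.006). With 4 such pairs this cannot exclude a pairing, which the labels do not state. With the replicate block 4 genes were called in B-lineage-like and 1 in pro-B-like cells, no member among them, and folds turned for Bach2 (-0.118 in B-lineage-like, -0.083 in small pre-B-like), Il7r and Pax5 (0.033 and 0.050, pro-B-like) and Ebf1 (0.057, small pre-B-like).

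Folds also changed sign in B-lineage-like cells for Ikzf1 (-0.0082, DESeq2), Bach2 (-0.042, sex), Bcl7a (-0.012, members left in the clustering), Bach2, Bcl7a and Ikzf1 (-0.059, -0.052 and -0.054, every barcode kept), and Bach2 and Bcl7a (-0.020 and -0.106, cells assigned by their own markers). In pro-B-like cells Ebf1 did so (0.35, doublets removed, a fit that also lost Pot1a fl/fl 3 and Pot1a wt/wt 1). Small pre-B-like folds did so for Bcl7a (-0.012, no filter), Bach2, Ebf1 and Il7r (-0.025, 0.111 and 0.47, sex), Il7r (0.048, the pair as 1 library) and Ebf1 (0.023, members left in). The stage ratio of Tcf3 became 0.34 with cells assigned by their own markers, and that of Ebf1 0.12 in counts per cell.

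Without single libraries, folds ranged in whole marrow from -0.26 to 0.36 (Bach2), -0.27 to 0.025 (Bcl7a) and -0.36 to 0.20 (Ebf1). In B-lineage-like cells they ranged from -0.25 to 0.35 (Bach2), -0.061 to 0.12 (Bcl7a), -0.39 to 0.033 (Ebf1) and -0.32 to 0.16 (Ikzf1). In pro-B-like cells Ebf1 ranged from -0.47 to 0.081. In small pre-B-like cells the ranges were -0.39 to 0.33 (Bcl7a), -0.34 to 0.22 (Ebf1), -0.57 to 0.14 (Il7r) and -0.43 to 0.15 (Pax5). The causes were not tested.

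Fits of pro-B-like cells with members left in the clustering, no integration or every barcode kept, and of small pre-B-like cells assigned by their own markers, were not run, since too few libraries kept 10 cells. The sex covariate, members left in for the genotype test, the stage interaction and counts per cell were chosen after seeing the data.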
